A study of Mus musculus with 6 samples.

Results

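The genes examined here carry out base excision repair of oxidized DNA. They are the DNA glycosylases Ogg1, Mutyh, Neil1 and Ung, the AP endonuclease Apex1, DNA polymerase beta (Polb), the flap endonuclease Fen1, the scaffold protein Xrcc1, DNA ligase III (Lig3) and Parp1. The members were the probes that the array names after one of these 10 genes. This found 18 probes for 9 genes, out of 41174 probes under 29742 gene names. No probe carried the name Parp1, and its 2 probes stand on the array under the older name Adprt1. Parp1 is therefore described beside the 9 genes and not counted among them.

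Base excision repair removes single damaged bases. Reactive oxygen species convert guanine to 8-oxoguanine, which Ogg1 excises when it is paired with cytosine, while Mutyh removes an adenine that was inserted opposite it. Neil1 acts on oxidized pyrimidines and ring-opened purines, and Ung removes uracil. Apex1 then cuts the backbone at the base-free site. The gap is filled and sealed along a short-patch route with Polb, Xrcc1 and Lig3 or along a long-patch route in which Fen1 trims the displaced flap. Parp1 binds the strand break in between. The WRN helicase, which is lost in Werner syndrome, is known to interact with several of these proteins.

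The cells were primary mouse embryonic fibroblasts, connective tissue cells grown from embryos that the labels place at day 15. Wild type cells and cells from mice with an in-frame deletion of part of the Wrn helicase domain (WS in the labels, called mutant here), both of the same mixed strain background, were compared on 6 two-colour Agilent arrays. Each of 3 comparisons had 2 arrays, namely H2O2-treated over untreated wild type cells (replicates 1 and 2), treated over untreated mutant cells (replicates 1 and 2), and mutant against wild type cells, both untreated (replicates 3 and 4). Treated cells had received 0.5 mM H2O2 for 1 hour and were collected 24 hours later. According to the study, the shortened Wrn protein is no less stable than the normal one. These cells therefore model the loss of part of the helicase domain rather than of the gene. The labels call the pairs biological replicates but do not say whether they came from separate embryos, so the tests measure the spread between these arrays. All 12 fibroblast marker genes examined were well above background in Cy3 on every array. So were 5 of 5 skeletal muscle, 6 of 7 macrophage, 3 of 4 epithelial, 3 of 4 neural and 1 of 4 endothelial markers. Median log2 intensities were 11.02 for fibroblast, 7.57 for muscle, 6.14 for neural, 5.79 for epithelial, 5.33 for macrophage and 4.44 for endothelial markers. Detection therefore does not show that the cultures held fibroblasts alone. Between genotypes, 6 of 11 fibroblast markers tested were called higher in the mutant (median log2 ratio 1.01). Among those called, Dcn, Lum and Pdgfrb had a value on both genotype arrays. Col1a1, whose value is the median, was measured on replicate 4 alone, and Col3a1 and Pdgfra on replicate 3 alone. Of other cell type markers, 0 of 7 for macrophages, 0 of 4 for endothelium and 0 of 5 for skeletal muscle were called. Among epithelial markers 1 of 4 was called lower, and among neural markers 1 of 4 higher. The part of all these markers in the member values was not tested.

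Treated RNA always carried Cy5 and untreated RNA Cy3, and no array had exchanged dyes, so a probe's preference for one dye enters every ratio. On the mutant against wild type arrays the labels place wild type RNA in Cy5, whereas the study's own table of this comparison runs as mutant over wild type for Cy5 over Cy3. The direction of that table was used as the likely one, and every sign of this comparison turns under the labels. Between the untreated Cy3 channels of the treatment arrays, whose labels and methods do not conflict, mutant minus wild type had the same sign as this direction for 92.4% of 4682 probes called between genotypes with a mean log2 intensity above 6. Among non-control spots, 0.400% to 22.6% per array were marked as outliers by the scanner software and left out, and wild type replicate 2 had the most. That array lacks a ratio for 8 of the 18 member probes, so 6 of the 9 genes have a wild type response from replicate 1 alone, and their error assumes that this array varied like the others. Wrn itself does not check the genotypes, because the sources used here do not place its 4 probes inside or outside the deletion. Its brightest probe had log2 ratios of mutant over wild type of 0.53 and 0.19 on replicates 3 and 4 (mean 0.36, SE 0.16, adjusted p = 0.16). The next 2 probes had 0.63 and 0.12, and 0.22 and -0.23. The dimmest Wrn probe ran the other way, at -0.77 and -1.04 (mean -0.91, adjusted p = 0.0115), with Cy5 not well above background on either array, so no fold is given for it.

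Between untreated mutant and wild type cells, Fen1 transcript was lower and Ogg1 transcript read higher in the mutant. Both passed the test across all probes, limma's moderated test with a Benjamini-Hochberg adjusted p below 0.05. They were 2 of the 9 genes, and 5 of the 18 probes were called, against 19.6% of all probes. In each direction 1 gene was called, where all probes gave 9.83% higher and 9.78% lower, so the share of members called is near that background. At the study's own thresholds 0 of the 9 genes were called, against 1.76% of all probes, and 5 of the 9 had an unadjusted p below 0.05, against 35.9% of all probes. The median log2 ratio of the 9 genes was 0.09 and that of all genes 0.03. In bulk cultures, fewer cells of one kind and less RNA per cell cannot be told apart.

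**Figure D1:**
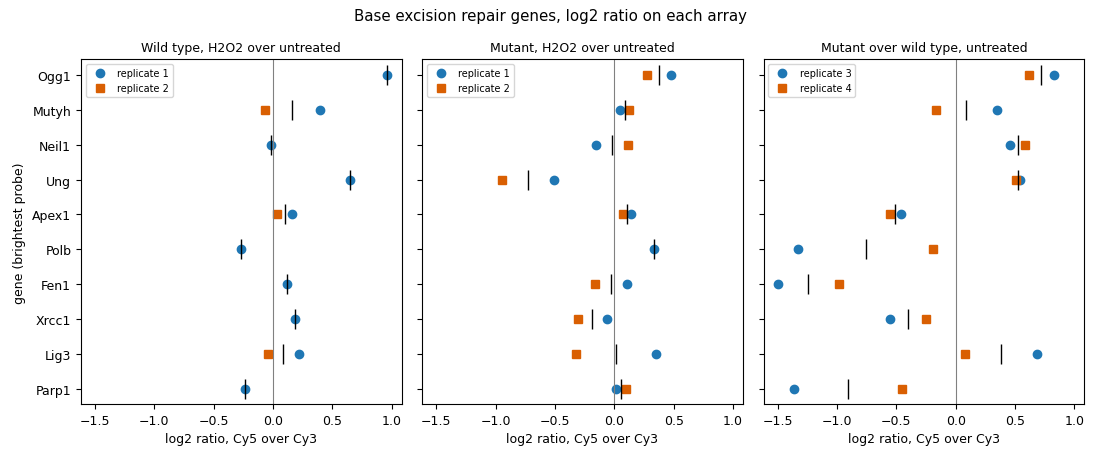
Log2 ratios of Cy5 over Cy3 for the brightest probe of each gene in the 3 comparisons, where circles and squares are the 2 arrays and black bars the fitted values; a missing point was left out as an outlier spot. Fen1 lies at -1.49 and -0.98 in mutant over wild type cells and Ogg1 at 0.82 and 0.62, while Ung is above 0 on the wild type treatment array and below 0 on both mutant treatment arrays.

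Fen1, which cuts the flap left by long-patch synthesis and also processes Okazaki fragments during replication, has 1 probe. Its log2 ratios of mutant over wild type were -1.49 on replicate 3 and -0.98 on replicate 4. The transcript was lower in the mutant on both arrays, by 2.36-fold on the fitted mean (log2 ratio -1.24, SE 0.20, adjusted p = 0.0115). The same direction was read from other cultures on the treatment arrays. There the Cy3 log2 intensity of untreated mutant cells was below that of untreated wild type cells by a log2 difference of -1.08 (SE 0.49, unadjusted p = 0.048, adjusted p = 0.49). In Cy5, treated mutant minus treated wild type cells gave -1.23 (SE 0.49, unadjusted p = 0.032, adjusted p = 0.51). Across the members, the brightest probes gave 0 of 9 genes called in Cy3, against 0.487% of all probes, and 0 in Cy5, against 0.328%. At an unadjusted p below 0.05, Fen1 was the 1 gene lower in Cy3, where 7.37% of all probes were, and Fen1 and Ung, the latter with mutant Cy5 not well above background, were the 2 genes lower in Cy5, where 6.21% were. Over all probes fewer were higher than lower in these channels, with 2.75% higher in Cy3 and 2.73% in Cy5. Both Fen1 differences rest on 1 wild type array against 2 mutant arrays. An offset between channels was read as Cy5 of the genotype arrays minus Cy3 of the treatment arrays with the same kind of untreated RNA. It comes from different arrays and cultures and shares its Cy5 values with the genotype ratio, so dye, array and culture cannot be told apart in it. For Fen1 it was -0.24 for mutant RNA under the direction used, and -1.32 for wild type RNA under the labels' direction. The genotype call was lost with median centring in place of loess (-0.87, adjusted p = 0.11), with the scanner software's own ratio (-1.24, adjusted p = 0.058) and when the genotype arrays were fitted alone (adjusted p = 0.061), and it held when any 1 array was left out (adjusted p of at most 0.045).

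Some genes of DNA replication and cell division were lower as well. Of 25 proliferation genes tested, 8 were called lower and 0 higher in the mutant, with a median log2 ratio of -0.54, against 8.46% of all genes called lower. Rrm2, a subunit of ribonucleotide reductase, had log2 ratios of -1.51 and -1.68 (mean -1.59, adjusted p = 0.0033). Top2a, the topoisomerase of dividing cells, had -2.52 and -1.26 (mean -1.89, adjusted p = 0.0116). The part that the share of dividing cells has in the Fen1 value was not tested.

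Ogg1 has 2 probes, both for the same RefSeq transcript. The brighter gave log2 ratios of mutant over wild type of 0.82 and 0.62, and the other gave 0.77 and 0.59. Both probes were higher in the mutant on both arrays, by 1.65-fold for the brighter (log2 ratio 0.72, SE 0.17, adjusted p = 0.034) and 1.61-fold for the other (log2 ratio 0.68, SE 0.16, adjusted p = 0.025). The call of the brighter probe was lost when any 1 of the 4 treatment arrays was left out (adjusted p of 0.059 without either wild type array and 0.096 without either mutant array), with median centring (adjusted p = 0.071), with the scanner software's ratio (adjusted p = 0.076), with a replicate block (adjusted p = 0.10) and with the genotype arrays alone (adjusted p = 0.22). The offset between channels was 0.73 for the brighter probe and 0.44 for the other under the direction used, and 0.63 and 0.43 under the labels' direction. Over all probes 90% of the offsets under the direction used fell between -1.01 and 0.71. In Cy3 of the treatment arrays, untreated mutant minus untreated wild type cells was -0.09 for the brighter Ogg1 probe (SE 0.48, adjusted p = 0.96) and -0.01 for the other (SE 0.39, adjusted p = 0.99). In Cy5, treated mutant minus treated wild type cells had the opposite sign to the genotype ratio. It was -0.68 for the brighter probe and -0.76 for the other (SE 0.39, adjusted p = 0.61). The brighter probe's Cy3 and Cy5 values rest on 1 wild type array. Its Cy3 error leaves room for a difference as large as the genotype ratio. The part of the dye in the Ogg1 reading was not tested.

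**Figure D2:**
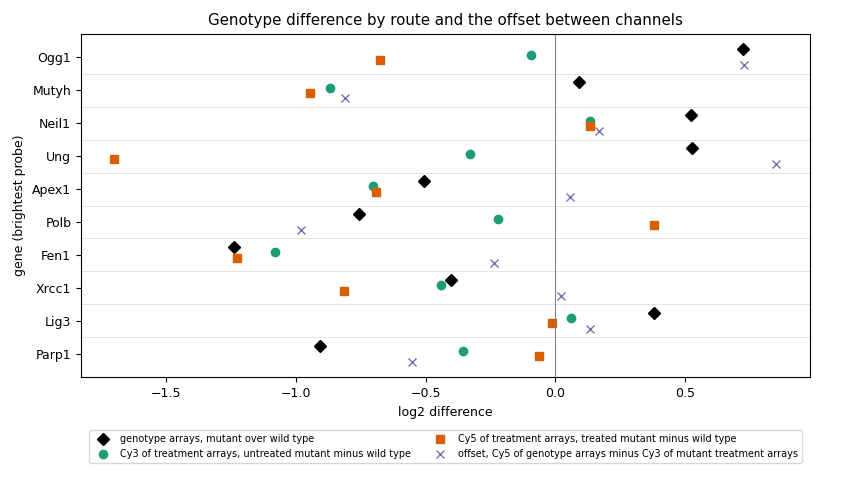
Log2 difference between genotypes for the brightest probe of each gene, from the genotype arrays (diamonds) and from the Cy3 and Cy5 channels of the treatment arrays (circles and squares), with the offset of Cy5 of the genotype arrays minus Cy3 of the mutant treatment arrays under the direction used (crosses), which shares its Cy5 values with the diamonds. For Fen1 the genotype differences lie at -1.24, -1.08 and -1.23 and the offset at -0.24. For Ogg1 the genotype ratio lies at 0.72, the offset at 0.73, the Cy3 difference at -0.09 and the Cy5 difference at -0.68.

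The regions around the annotated starts of both called genes are shown because these genes carried the calls. They run from 250 bases before to 50 bases after the start, on the strand of the gene, from the RefSeq table of GRCm38.p6. That table held 9 of the 10 genes. Ogg1 lies at chr6:113326726-113327025 on the plus strand. Fen1 has 2 annotated starts on the minus strand, with regions at chr19:10203872-10204171 and chr19:10204344-10204643. Capitals mark matches, on either strand, to GGGCGG (a GC box), to TGACNNNGC (the core of the element bound by NRF2, the regulator of antioxidant genes) or to TTTCCCGC or TTTGGCGC (the E2F element of many S phase genes).
Ogg1: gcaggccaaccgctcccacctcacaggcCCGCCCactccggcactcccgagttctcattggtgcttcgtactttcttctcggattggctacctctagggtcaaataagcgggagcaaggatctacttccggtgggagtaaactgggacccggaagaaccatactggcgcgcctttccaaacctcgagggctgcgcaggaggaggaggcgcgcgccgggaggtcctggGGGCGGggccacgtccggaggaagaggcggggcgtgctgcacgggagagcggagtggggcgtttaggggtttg
Fen1, region of the lower coordinates: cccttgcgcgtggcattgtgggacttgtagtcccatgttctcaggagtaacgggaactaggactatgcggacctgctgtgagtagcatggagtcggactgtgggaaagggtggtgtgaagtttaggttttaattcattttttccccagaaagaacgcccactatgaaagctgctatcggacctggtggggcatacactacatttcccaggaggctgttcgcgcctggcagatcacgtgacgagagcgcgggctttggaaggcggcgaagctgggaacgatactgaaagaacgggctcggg
Fen1, region of the higher coordinates: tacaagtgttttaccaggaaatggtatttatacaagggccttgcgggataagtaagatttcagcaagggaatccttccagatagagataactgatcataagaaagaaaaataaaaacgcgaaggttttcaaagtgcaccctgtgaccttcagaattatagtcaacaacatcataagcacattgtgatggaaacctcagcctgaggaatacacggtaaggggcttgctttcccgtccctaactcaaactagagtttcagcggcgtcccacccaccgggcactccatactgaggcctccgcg
The Ogg1 region holds 2 GC box matches, and GC boxes stood in 35.7% of all 32841 promoter regions. Neither Fen1 region matches any of these letters. The NRF2 core was found in 12.4% and the E2F letters in 1.57% of all regions, and among the members only Neil1 held the NRF2 core and none the E2F letters. These matches describe the letters in the windows and say nothing on binding.

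Among the other glycosylases, 2 read higher in the mutant without passing the adjusted test. Neil1's brightest probe had log2 ratios of mutant over wild type of 0.46 and 0.59 (mean 0.52, SE 0.17, adjusted p = 0.082). Its second probe had 0.22 and -0.17 and its dimmest, not well above background on any array, -0.06 on replicate 3 alone. Ung had 0.54 and 0.51 (mean 0.52, SE 0.18, adjusted p = 0.096). The offset between channels was 0.17 for Neil1 and 0.85 for Ung under the direction used (0.30 and 0.52 under the labels'), and in Cy3 of the treatment arrays mutant minus wild type was 0.13 for Neil1 and -0.33 for Ung (adjusted p = 0.95 and 0.85).

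The 3 probes of Mutyh disagreed. Its brightest had log2 ratios of 0.34 and -0.16 and its dimmest 0.04 and 0.07. The probe of middle brightness, which is for the same RefSeq transcript as the brightest, had -1.88 and -1.28 and was called lower (mean -1.58, SE 0.24, adjusted p = 0.0101). Cy5 was not well above background for it on either genotype array, so the lower level is a bound, and mutant was at least 2.19-fold lower. The bound sets the mean of the brighter channel against, per array, the higher of the probe's own value and the lowest signal well above background. It is open to dye bias without exchanged dyes.

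Apex1, the AP endonuclease and the brightest of the members, had log2 ratios of -0.46 and -0.55. It was lower in the mutant on both arrays but did not pass the adjusted test (mean -0.51, SE 0.15, adjusted p = 0.056). In Cy3 of the treatment arrays its mutant minus wild type difference was -0.70 (SE 0.42, adjusted p = 0.60) and in treated Cy5 -0.69 (SE 0.44, adjusted p = 0.69). Its offset between channels was 0.06 under the direction used and -0.64 under the labels'. None of these Apex1 readings passed the test.

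Of the gap-filling and sealing genes, Xrcc1, the scaffold for Polb and Lig3, had log2 ratios of -0.55 and -0.25 on its brightest probe (mean -0.40, SE 0.18, adjusted p = 0.16). Its second probe had -1.12 and -0.73 and was called lower (mean -0.92, SE 0.18, adjusted p = 0.0197), and its dimmest had -0.07 and -0.62, with Cy5 not well above background on either array. All 3 Xrcc1 probes were below 0 on both arrays. Polb, the short-patch polymerase, had -1.33 and -0.19 on its brighter probe (mean -0.76, SE 0.31, adjusted p = 0.15) but -0.09 and 0.19 on the other. Lig3, the sealing enzyme, had 0.69 and 0.08 (mean 0.38, SE 0.23, adjusted p = 0.28) and, on its second probe, 0.15 and 0.02. The arrays of the pair lay far apart for Polb and Lig3, and neither gene differed beyond that spread.

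Parp1, which binds strand breaks and makes poly(ADP-ribose), had log2 ratios of -1.36 and -0.45 on its brighter probe (mean -0.91, SE 0.25, adjusted p = 0.051). Its other probe had -1.09 and -0.65 and was called lower (mean -0.87, SE 0.22, adjusted p = 0.041). Both probes were lower in the untreated mutant on both arrays, by 1.87-fold and 1.83-fold, and only the second was called. In Cy5 of the treatment arrays, treated mutant minus treated wild type cells was -0.06 for the brighter probe and -0.16 for the other. These Cy5 values rest on 1 wild type array. The offset between channels was -0.55 for the brighter probe and -0.03 for the other under the direction used (-0.91 and -0.46 under the labels'), and their Cy3 differences of mutant minus wild type were -0.35 (adjusted p = 0.84) and -0.43 (adjusted p = 0.80).

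**Figure D3:**
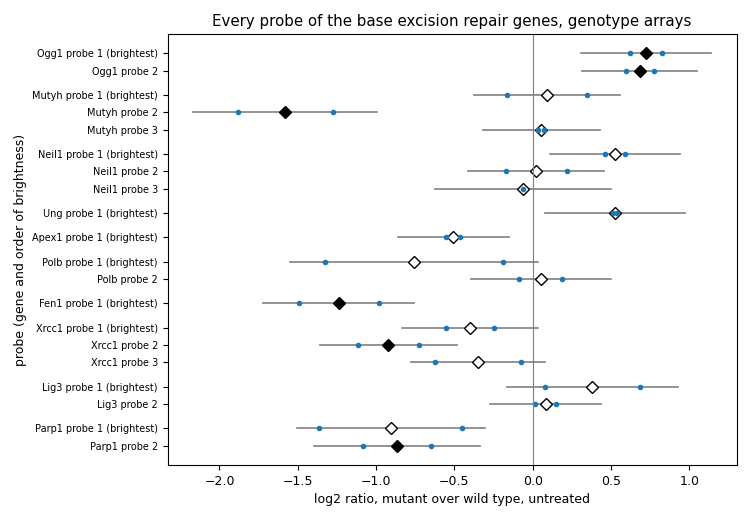
Log2 ratio of untreated mutant over untreated wild type cells for every probe of the members and of Parp1, ordered by brightness within a gene; dots are the arrays, diamonds the fitted values (filled where the adjusted p was below 0.05) and lines 95% intervals. Both Ogg1 probes lie near 0.7 and Fen1 at -1.24, whereas the called Mutyh probe at -1.58 stands apart from the other Mutyh probes at 0.09 and 0.06.

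In wild type cells, H2O2 changed 0 of the 9 genes past the adjusted threshold, against 0.258% of all probes. At the study's thresholds 0 of the 9 were called, against 0% of all probes, so that count says nothing on the members. The study itself reports called genes for this comparison at these thresholds, and those calls were not recovered here. At an unadjusted p below 0.05 there were 2 genes, Ogg1 and Ung, both higher, against 9.98% of all probes higher. The median log2 ratio of the 9 genes was 0.12 and that of all genes 0.00. The smallest adjusted p over all probes was 0.0229. Other lists moved beside these readings in wild type cells, with 0 of their genes called. The proliferation genes had a median log2 response of 0.56, with 14 of 22 higher at an unadjusted p below 0.05, and the fibroblast markers a median of -0.99, with 5 of 9 lower and 2 higher. Of these fibroblast markers, Col3a1, Pdgfrb and Thy1 had a value on wild type replicate 1 alone and Vim on replicate 2 alone. The part of both lists in the Ogg1 and Ung values was not tested.

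Ogg1 had a log2 ratio of treated over untreated wild type cells of 0.96 on replicate 1, and its spot on replicate 2 was left out (SE 0.24, adjusted p = 0.10). Its second probe was measured on both arrays, at 0.93 and 0.77 (mean 0.85, SE 0.16, adjusted p = 0.058). When the outlier spot was kept, the brighter probe read 0.97 and 0.80 and was called (log2 ratio 0.89, adjusted p = 0.044). Replicate 1's value alone also passed the test when genotype replicate 3 or 4 was left out of the fit. This probe's own spread then came from the 2 mutant treatment arrays alone, so that pass measures no agreement between wild type arrays. In mutant cells the same probe had 0.48 and 0.27 (mean 0.37, SE 0.17, adjusted p = 0.45), and the second had 0.16 and 0.03 (mean 0.10, SE 0.16, adjusted p = 0.85). Every Ogg1 reading in wild type cells lay above every one in mutant cells, and both sets were read with treated RNA in Cy5. The difference of the responses, mutant minus wild type, was -0.58 for the brighter probe (95% interval -1.30 to 0.13, adjusted p = 0.85) and -0.75 for the other (95% interval -1.27 to -0.23, unadjusted p = 0.011, adjusted p = 0.73), so it did not pass the test across all probes.

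Ung, which removes uracil from DNA and is made mainly around S phase, had a log2 ratio of 0.64 in wild type replicate 1, and the spot of replicate 2 was left out (SE 0.26, adjusted p = 0.24). In mutant cells it had -0.51 and -0.94 (mean -0.72, SE 0.18, unadjusted p = 0.0073, adjusted p = 0.28). Cy5 of the treated mutant cells was not well above background on either array, which makes their level a bound of at least 1.10-fold lower. The readings of the genotypes had opposite signs. With the mutant response at its bound, the difference, mutant minus wild type, was -0.78 on the log2 scale or further below 0, before the error of the single wild type array. The fit, which takes the dim readings at their value, gave -1.37 (unadjusted p = 0.0049, adjusted p = 0.66), and none of the 40267 probes passed the adjusted test for this difference (0% called), where the smallest adjusted p was 0.155. With the outlier spot kept, wild type replicate 2 read 0.30. When genotype replicate 3 or 4 was left out of the shared fit, Ung passed the test in the mutant and for the difference of responses. Those fits used the same dim readings. The probe's own spread then came from the 2 mutant arrays alone, so they measure no agreement between wild type arrays.

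**Figure D4:**
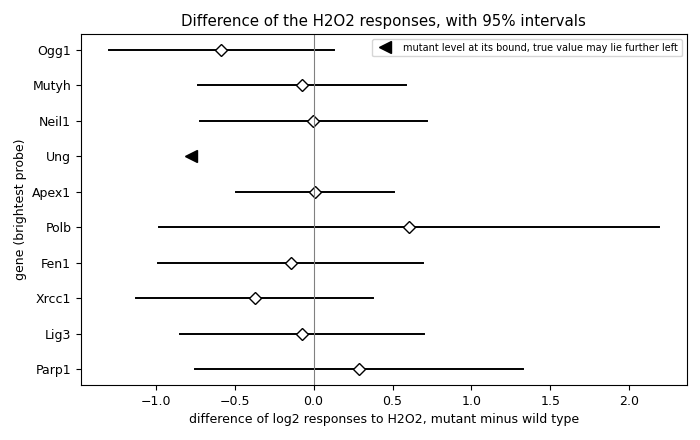
Difference of the log2 responses to H2O2, mutant minus wild type, for the brightest probe of each gene, with 95% intervals as lines; no gene passed the adjusted test. Ung is drawn as a triangle at -0.78, with the mutant level at its bound and no interval, and the interval of Ogg1 at -0.58 crosses 0.

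In mutant cells, H2O2 changed 0 of the 9 genes past the adjusted threshold, against 0% of all probes, and 1 gene, Ung, had an unadjusted p below 0.05, against 6.21% of all probes lower. For the difference of the responses the same held: Ung alone had an unadjusted p below 0.05 among the 9 genes, against 2.67% of all probes lower. The median log2 response of the 9 genes in mutant cells was 0.02, and that of all genes 0.01.

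None of the remaining members had a response that passed the adjusted test in either genotype. On the arrays with a value, the brightest probes of Fen1, Apex1 and Neil1 lay close to 0 in both genotypes. Fen1, low in untreated mutant cells, had a log2 ratio of treated over untreated cells of 0.12 in wild type replicate 1 and of 0.11 and -0.16 in mutant cells. Apex1 had 0.16 and 0.04 in wild type and 0.14 and 0.07 in mutant cells, and the difference of its responses was 0.01 (95% interval -0.49 to 0.51). Among the brightest probes Apex1 had the narrowest interval for this difference. For Fen1 the interval ran from -0.98 to 0.69 and for Neil1 from -0.72 to 0.72. Neil1 had -0.02 in wild type replicate 1 and -0.15 and 0.12 in mutant cells, while its second probe had -0.32 and -0.37 in wild type cells and -0.35 in mutant replicate 1.

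Mutyh's brightest probe had log2 ratios of treated over untreated cells of 0.40 and -0.07 in wild type and 0.05 and 0.13 in mutant cells. Its dimmest probe had 0.74 and 0.45 in wild type cells (mean 0.59, unadjusted p = 0.0071, adjusted p = 0.10) and -0.23 and -0.12 in mutant cells, where Cy5 was not well above background. The fitted difference of its responses was -0.77 (unadjusted p = 0.011, adjusted p = 0.72) and takes the dim readings at their value. In all, 3 of the 18 member probes had an unadjusted p below 0.05 for this difference, all lower in the mutant, against 2.67% of all probes lower. They were 1 each of Ung, Ogg1 and Mutyh, and for Ung and Mutyh the treated mutant Cy5 was not well above background.

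On no probe did the short-patch genes give a response that passed the adjusted test, and their probes did not all run alike. Xrcc1's brightest probe had 0.19 in wild type replicate 1 and -0.07 and -0.31 in mutant cells. Its second probe ran the other way, with -0.46 in wild type replicate 1 and 0.18 and 0.11 in mutant cells. Its dimmest had -0.05 and -0.13 in wild type and -0.08 and -0.16 in mutant cells. Polb had -0.27 in wild type replicate 1 and 0.34 in mutant replicate 1, with the other array left out in both, and the difference of its responses was 0.60 (95% interval -0.98 to 2.19). Polb's other probe had 0.21 and -0.14 in wild type cells and 0.31 in mutant replicate 1. Lig3's brighter probe had 0.22 and -0.04 in wild type and 0.35 and -0.32 in mutant cells. Its second probe was below 0 on every treatment array, at -0.35 and -0.35 in wild type cells (adjusted p = 0.26). In mutant cells it had -0.22 and -0.36 (adjusted p = 0.49), with Cy5 not well above background on either array. Parp1 had -0.23 in wild type replicate 1 and 0.01 and 0.10 in mutant cells. The 95% intervals still allow responses that differ between genotypes by more than 1.5-fold in either direction for Polb, Lig3, Parp1, Fen1 and Neil1.

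Other genes of the pathway had calls between genotypes and none after treatment, an order that the whole array shared. Over all probes 19.6% were called between genotypes, 0.258% for the wild type response and 0% for the mutant response. Of 35 further genes, from other glycosylases to the replicative polymerases and clamp loaders, 5 were called higher and 5 lower in the mutant, against 10.8% and 8.46% of all genes, and their median log2 ratio was 0.04. Smug1, a second uracil glycosylase, had log2 ratios of 1.76 and 1.15 (mean 1.46, SE 0.22, adjusted p = 0.0068). Tdg, which removes thymine and uracil opposite guanine, had 0.48 and 1.25 (mean 0.87, SE 0.21, adjusted p = 0.030). In Cy3 of the treatment arrays, mutant minus wild type was 1.27 for Smug1 (adjusted p = 0.41) and 0.86 for Tdg (adjusted p = 0.50), and their offsets between channels under the direction used were -0.05 and 0.03.

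Aptx, which repairs abortive ligation ends, had log2 ratios of 0.79 and 0.96 (mean 0.88, adjusted p = 0.011). Parp3 had 1.00 and 0.70 (mean 0.85, adjusted p = 0.0138) and Apex2, the relative of Apex1, 0.68 and 0.46 (mean 0.57, adjusted p = 0.045). For these 3 genes the Cy3 difference was 0.18 for Aptx, -0.14 for Parp3 and -0.22 for Apex2, and none passed the test there. Their offsets under the direction used were 0.48, 0.56 and 0.21. Among the genes called lower, Poll, a relative of Polb, had -2.17 and -0.76 (mean -1.47, adjusted p = 0.038). Pole, the catalytic subunit of a replicative polymerase, had -0.53 and -1.11 (mean -0.82, adjusted p = 0.030), and Pcna, the sliding clamp that Fen1 binds, -0.54 and -0.83 (mean -0.69, adjusted p = 0.040). Parp2, the relative of Parp1, was below 0 on both arrays (mean -0.82, adjusted p = 0.030) and Mpg, the alkyladenine glycosylase, -0.47 and -0.80 (mean -0.63, adjusted p = 0.038). All 5 genes called lower were also below 0 in Cy3 of the treatment arrays, from -1.04 for Parp2 to -1.83 for Poll. None passed the adjusted test there. Cy3 itself ran toward lower in the mutant, with 7.37% of all probes lower and 2.75% higher at an unadjusted p below 0.05. The offsets of these genes under the direction used were -0.63 for Poll, 0.23 for Pole, 0.24 for Pcna, -0.34 for Parp2 and 0.08 for Mpg.

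After H2O2, 0 of these 35 genes were called in either genotype, against 0.131% of all genes called higher and 0.124% lower in wild type cells and 0% in mutant cells, with a median log2 response of 0.16 in the wild type and -0.01 in the mutant, and in wild type cells 10 were higher and 2 lower at an unadjusted p below 0.05, against 10.7% and 9.49% of all genes. The largest values with the same direction on both arrays were, in wild type cells, -0.98 for Poll, 0.87 for Pole and 0.84 for Pole2, a partner of Pole (adjusted p = 0.21, 0.079 and 0.093). In mutant cells they were -0.85 for Smug1, -0.65 for Poll and -0.59 for Pold2, a subunit of the lagging-strand polymerase (adjusted p = 0.27, 0.55 and 0.36). Smug1 had log2 responses of 0.47 and 0.95 in wild type and -0.69 and -1.02 in mutant cells. The difference of its responses was -1.56 (unadjusted p = 0.0014, adjusted p = 0.55). Smug1 was the 1 gene of the 35 lower at an unadjusted p below 0.05 for this difference, and 0 were higher. Of all genes 2.93% were lower and 2.92% higher, so this share is near that background.

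Over the 5 arrays with an Ogg1 ratio, the genes outside all lists whose log2 ratios lay closest to those of its brightest probe were Dph2, Srpk1 and Acadl, with root mean square differences of 0.113, 0.122 and 0.124. For Fen1 they were Mapk1ip1l, C1ql3 and Rgs16, with 0.129, 0.141 and 0.157. They were the closest of 4910 genes measured on all 6 arrays with a mean log2 intensity above 6, and the values describe likeness of ratios alone.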

How the data were processed

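The 6 arrays were read from the deposited per-array tables, in which the authors gave each spot's mean and local background intensity in Cy3 and Cy5, and the flags of the Feature Extraction software (version 7.5.1 in the headers, another in the methods), codes that have no unit. The same deposited files hold that software's log10 ratio of Cy5 over Cy3, which the authors left as it came. The deposited series table holds the authors' log2 ratios after background subtraction and loess. The labels give total RNA and the methods cytoplasmic RNA. Here the background median was subtracted, loess was run within arrays in limma 3.58.1 (R 4.3.3, data.table, version 1.17.8), control and outlier spots were left out, saturated spots kept, and spots of a probe averaged. One limma model (lmFit, eBayes) covered the 6 arrays (3 residual and 3.98 prior degrees of freedom), and two-sided p-values were adjusted by Benjamini-Hochberg over all non-control probes. The study's thresholds, as its results text gives them, were an adjusted p of 0.005, a fold of 2 (not between genotypes) and a log2 intensity of 6. The legends of its supplement instead state a looser adjusted p, and a fold of 2 between genotypes as well. Channels were compared after Aquantile scaling. A gene stands for its brightest probe. All members and Wrn were named, then listed genes that were called, or else the 3 largest changes. The members, lists and rules were chosen with earlier results of these data known. The number of arrays limits the precision. The procedure was tested on simulated data. Figures used Python 3.11.15, pandas 2.3.3 and matplotlib 3.10.9.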

Additional observations from a re-analysis of the deposited data

How the results depend on the processing

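Of 730 values of single genes under the alternatives, 25 gained and 11 lost a call, and 2 were called in the opposite direction. These were Ogg1 at -0.72 and Fen1 at 1.24 when the labels' dyes are followed. Calls between genotypes, 2 of 9 genes, rested on the setting. They were 0 with median centring in place of loess and 0 when only the 2 genotype arrays were fitted, 1 with the Feature Extraction ratio (Apex1), 4 when only probes above intensity 6 were tested (Ogg1, Neil1, Apex1 and Fen1) and 4 with the mean of a gene's probes (Ogg1, Apex1, Xrcc1 and Fen1). Ogg1 and Fen1 kept their direction in all of these, and the cause of the changes was not tested. Leaving out 1 array gave 1 to 4 genes: Fen1 alone without any 1 of the 4 treatment arrays, and 4 without genotype replicate 3. For the wild type response, 1 gene (Ogg1) was called in place of 0 with outlier spots kept and with the authors' series table, and leaving out 1 array gave 0 to 1. Fits of the own arrays alone called 1 gene, Ung, for the mutant response and 1, Ung, for the difference of responses. Leaving out 1 array gave 0 to 1 for both. In Cy3 and in Cy5 of the treatment arrays, leaving out 1 array gave 0 to 1, the latter Mutyh without wild type replicate 1, with 3 genes left to test. A replicate block on the treatment arrays left 1 gene between genotypes (Fen1) and changed no other count. The deviations of same-numbered arrays correlated at -0.05, so the ratios showed no effect shared by arrays of the same number. Whether those cultures were handled together cannot be read from this, because a ratio cancels what both its channels share. Of 671 values called in neither setting, 59 changed sign. Normexp and an alternative chosen after seeing the data, outlier spots kept in the loess curve only, left all counts within 1.5-fold.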
